A study of Mus musculus with 9 samples.

Results

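The genes described here encode the signals by which bone cells start, sustain or restrain osteoclasts. They are Tnfsf11 (the ligand RANKL), Tnfrsf11b (its decoy receptor OPG), Csf1, Il34, Il6, Il11, Lif, Sema3a and Ptgs2. The members were all probe sets annotated to exactly 1 of these genes, which gave 18 of the 34958 probe sets with a single gene, and all 9 genes were found among 18194. Each gene is described first by its brightest probe set, averaged over 9 arrays, and then by its dimmer ones. Levels are log2 values from Affymetrix mouse expression arrays.

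The arrays came from wild-type CD1 mice in 3 groups of 3 arrays. Virgin mice were age-matched controls, lactation mice were killed on day 12 of lactation, and post-lactation mice were killed on day 7 after their pups had been removed on lactation day 12. All mice were 16 to 18 weeks old per the labels, and litters were set to 8 to 13 pups. RNA came from tibial shafts that had lost their periosteum and marrow and went through rounds of collagenase, trypsin and EDTA, so that osteocytes were enriched but not sorted, although 1 sentence of the extraction protocol speaks of femurs. The groups were taken from the sample titles, because the post-lactation arrays carry the word virgin as their source. No label says whether each array came from its own mouse, so the p-values measure only the spread between these samples.

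Osteocytes and other cells of the osteoblast lineage control osteoclasts mainly through RANKL, which binds the receptor RANK on osteoclast precursors and drives their differentiation. OPG is a secreted receptor that captures RANKL, so the balance of the pair is used in this field as a measure of the drive to resorb. CSF1 and IL34 keep precursors alive through a shared receptor, CSF1R. IL6, IL11 and LIF signal through the common subunit gp130 and can raise RANKL on osteoblast-lineage cells. Ptgs2 encodes the inducible cyclooxygenase COX-2, which makes the precursor of prostaglandin E2, a further inducer of RANKL, and Sema3a encodes a secreted semaphorin that restrains osteoclast formation. During lactation the skeleton gives up mineral for milk, and after weaning it is rebuilt.

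RefSeq promoter sequences (GRCm38.p6) were available for 7 of the 9 genes. The 250 bases before the annotated start are shown for Tnfsf11, the central ligand, and for Il6 and Ptgs2, which had the largest differences between groups. Each is written 5' to 3' on the strand of the gene. Capitals mark matches, on both strands, to the CRE core TGACG, the AP-1 motif TGANTCA, an NF-kB motif, the C/EBP motif TTNNGNAA, the E-box CACGTG and the TATA motif TATAA. The Tnfsf11 window is chr14:78308044-78308293 on the minus strand, the Il6 window chr5:30012864-30013113 on the plus strand and the Ptgs2 window chr1:150099781-150100030 on the plus strand.
Tnfsf11: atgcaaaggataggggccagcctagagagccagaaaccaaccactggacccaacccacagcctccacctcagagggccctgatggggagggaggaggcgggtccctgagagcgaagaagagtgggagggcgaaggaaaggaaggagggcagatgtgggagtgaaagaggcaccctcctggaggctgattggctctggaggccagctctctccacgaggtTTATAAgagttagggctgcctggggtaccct
Il6: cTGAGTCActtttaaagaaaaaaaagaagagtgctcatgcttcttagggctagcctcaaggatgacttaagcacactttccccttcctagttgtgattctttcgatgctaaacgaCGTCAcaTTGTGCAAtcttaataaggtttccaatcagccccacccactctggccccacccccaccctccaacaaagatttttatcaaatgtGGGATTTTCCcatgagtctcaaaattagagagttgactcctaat
Ptgs2: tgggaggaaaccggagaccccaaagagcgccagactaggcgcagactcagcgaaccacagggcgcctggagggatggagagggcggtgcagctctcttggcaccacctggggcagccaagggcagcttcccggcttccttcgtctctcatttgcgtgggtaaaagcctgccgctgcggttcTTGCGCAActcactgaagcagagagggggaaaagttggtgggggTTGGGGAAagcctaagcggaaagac

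The Il6 window held an AP-1 match, a CRE core close to a C/EBP match, and an NF-kB match. The Ptgs2 window held a pair of C/EBP matches. In the Tnfsf11 window the capitals mark overlapping TATA matches on both strands. Among 32851 promoter windows of the same length, 6.75% held the AP-1 motif, 17.8% the CRE core, 36.8% the C/EBP motif, 1.41% the NF-kB motif, 22.8% the TATA motif and 6.02% the E-box. Among the 7 members an AP-1 match stood in 3 (Il6, Il11 and Lif), an NF-kB match in 2 (Il6 and Csf1), a C/EBP match in 2 (Il6 and Ptgs2), a TATA match in 2 (Tnfsf11 and Il11), the CRE core in 1 (Il6) and the E-box in 0. These matches describe letters in the windows and were not tied to the expression values.

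The osteocyte markers Dmp1 (mean 13.51), Mepe (12.42) and Sost (12.23), genes of mineral and Wnt control, were bright over the 9 arrays, while the hormone gene Fgf23 stood at 3.00. Above the array median, the mean of 13 osteocyte genes was 3.18 to 5.39, and that of 10 neutrophil genes 7.04 to 8.26. These levels do not show which cells gave most of the RNA. A level of 4.87, the 40th percentile of gene means, is used below as the mark under which no fold is given. The arrays fell into 3 sets that share exactly equal values, taken here as arrays summarised together, with 1 array from every group in each set. Set 1 was virgin 1, lactation 3 and post-lactation 1. Set 2 was virgin 2, lactation 2 and post-lactation 3, and set 3 was virgin 3, lactation 1 and post-lactation 2. Between arrays of a set, 36.1% to 44.1% of values were equal in sets 2 and 3, and 2.5% to 2.7% in set 1. Array set accounted for a median of 76.1% of a gene's variance over the arrays, so the members' differences are mostly given within sets as well. Virgin 1 stood apart, with osteocyte genes at a mean of 3.18 above the array median, against 4.95 in virgin 2 and 5.39 in virgin 3. Because these are bulk samples, fewer cells of a type and less RNA per cell cannot be told apart.

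Tnfsf11 had its lowest mean in virgin bone. The values were 7.76, 7.46 and 7.24 in virgin arrays 1 to 3, 8.17, 8.19 and 7.41 in lactation arrays 1 to 3, and 8.08, 7.88 and 8.32 in post-lactation arrays 1 to 3. All post-lactation arrays lay above all virgin arrays, whereas 1 lactation array, lactation 3, lay inside the virgin range. The means were 7.48 ± 0.26 in virgin, 7.92 ± 0.45 in lactation and 8.09 ± 0.22 in post-lactation arrays (SD, n = 3 each). Post-lactation exceeded virgin by 0.61 on the log2 scale (SE 0.26, 1.52-fold). Its unadjusted p was 0.0398 and its adjusted p was 1 by limma, and the difference was 0.32, 0.86 and 0.64 within sets 1, 2 and 3. Lactation exceeded virgin by 0.44 (SE 0.26, 95% interval -0.14 to 1.01, adjusted p = 1 by limma), with -0.35, 0.73 and 0.93 within the sets. Post-lactation differed from lactation by 0.17 (SE 0.26, 95% interval -0.40 to 0.74), with 0.67, 0.13 and -0.29 within the sets, and by -0.09 without lactation 3. B lymphocyte genes, all 11 measured, also had a higher mean in post-lactation than in virgin arrays. Their median difference was 1.18, and 0.39 without virgin 1. Of 10 erythroid genes 8 were called lower there (0.176% of all genes were called in either direction). The part of these cells in the Tnfsf11 values was not tested. The other probe set of Tnfsf11, dimmer at a mean of 5.60, differed by 0.19 between lactation and virgin and by 0.09 between post-lactation and virgin, with an SE of 0.61 for each. Within sets 1, 2 and 3 its lactation minus virgin differences were -0.518, 0.45 and 0.647. Its post-lactation minus virgin differences were -0.0538, 0.45 and -0.115, so only set 2 was higher.

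Tnfrsf11b varied more among virgin arrays than between groups. It stood at 4.63, 6.14 and 8.05 in virgin arrays 1 to 3, at 7.06, 6.54 and 5.82 in lactation arrays 1 to 3, and at 5.66, 6.30 and 6.41 in post-lactation arrays 1 to 3. The virgin arrays held both the lowest and the highest value of all 9, so the groups overlapped in every comparison. The lowest, 4.63 in virgin 1, lay below 4.87, so the set 1 differences from virgin rest on a value near background. Lactation minus virgin was 0.20 (SE 0.67, 95% interval -1.27 to 1.67), with 1.18, 0.40 and -0.98 within sets 1, 2 and 3. It was -0.62 without virgin 1 and -0.09 without lactation 1. Post-lactation minus lactation was -0.35 (SE 0.67) and lay below 0 in all 3 sets, at -0.16, -0.13 and -0.77 (adjusted p = 1 by limma). Post-lactation minus virgin was -0.15 (SE 0.67), with 1.03, 0.27 and -1.75 within the sets. Without virgin 1 it was -0.97. Other single arrays turned its direction, since it was 0.73 without virgin 3 and 0.08 without post-lactation 1. Other probe set values were dim, between 3.60 and 4.33 over all arrays, and give no fold.

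Marker genes of several cell types moved with or against Tnfrsf11b among the virgin arrays. The mean of 12 periosteum and tendon genes, in log2 above the array median, was 0.42, 0.74 and 1.97 in virgin arrays 1 to 3, while the other 6 arrays lay between 0.79 and 1.09. The mean of 12 chondrocyte genes was -0.33, 0.44 and 1.06 in the same virgin arrays and between -0.28 and 0.52 in the other 6, and 4 of these 12 genes had a mean above 4.87. Of the 12 periosteum and tendon genes 7 had such a mean. Single genes stood out in virgin 3, with Prg4 at 9.72 (4.18 in virgin 1, 3.41 in virgin 2) and Chad at 8.86 (3.32 and 4.62). Osteocyte, osteoblast and endothelium genes ran in the same order in virgin arrays. Neutrophil genes, at 8.26, 7.61 and 7.24, and T and NK lymphocyte genes ran in the reverse order. The part of these cells in the Tnfrsf11b values was not tested.

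The log2 ratio of Tnfsf11 to Tnfrsf11b was read only as a change, since 2 probe sets have no common zero. Set to a virgin mean of 0, it was 1.91, 0.105 and -2.02 in virgin arrays 1 to 3. It was -0.101, 0.435 and 0.377 in lactation arrays and 1.21, 0.37 and 0.70 in post-lactation arrays. The virgin arrays spanned more than the other 6 arrays did. The ratio was 0.237 higher in lactation than in virgin arrays (exact two-sided permutation p = 0.8), 0.759 higher in post-lactation than in virgin arrays (exact p = 0.7) and 0.523 higher in post-lactation than in lactation arrays (exact p = 0.3). With 3 arrays against 3 the smallest p possible is 0.1. Without virgin 1 the differences from virgin were 1.19 for lactation and 1.72 for post-lactation, and without virgin 3 they were -0.772 and -0.25. Within sets 1, 2 and 3 the lactation minus virgin change was -1.54, 0.33 and 1.92, the post-lactation minus lactation change was 0.83, 0.27 and 0.47, and the post-lactation minus virgin change was -0.71, 0.60 and 2.39.

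**Figure D1:**
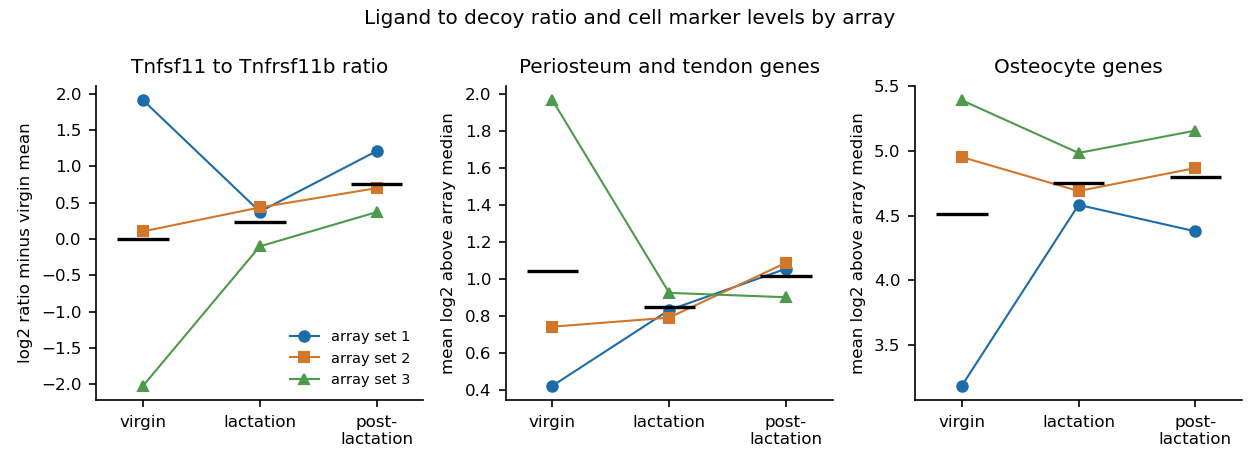
Left, log2 ratio of Tnfsf11 to Tnfrsf11b minus its virgin mean; middle and right, mean log2 level above the array median of periosteum and tendon genes and of osteocyte genes. Each point is an array, lines join arrays of 1 array set (not of 1 mouse) and black bars are group means. The virgin ratios run from -2.02 to 1.91, a wider span than the other groups, and the Tnfrsf11b value of virgin 1 lay below 4.87.

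Csf1, the survival factor of the macrophage and osteoclast lineage, was the member with most probe sets, 4 in all. Its brightest gave 8.08, 9.28 and 8.80 in virgin arrays 1 to 3, 9.11, 9.31 and 8.79 in lactation arrays 1 to 3, and 8.80, 8.62 and 9.31 in post-lactation arrays 1 to 3. Virgin 1 was the lowest array and the rest of the groups overlapped. Lactation minus virgin was 0.35 (SE 0.31, 95% interval -0.34 to 1.03), positive within all 3 sets at 0.70, 0.03 and 0.31, and was 0.03 without virgin 1. The 3 dimmer Csf1 probe sets differed by 0.45 (SE 0.24), 0.30 (SE 0.38) and 0.02 (SE 0.28) in that comparison. In the first of these the lactation arrays (6.72, 6.49 and 6.66) lay above both the virgin arrays (5.71, 6.45 and 6.37) and the post-lactation arrays (6.48, 6.18 and 6.45). All 4 had an adjusted p of 1 by limma. Il34, the alternative ligand of CSF1R, lay between 3.19 and 3.88 on every array, and set 2 and set 3 gave exactly equal values in the 3 groups, so no fold is given for it.

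Il6 showed the largest difference of any member. It stood at 9.17, 9.70 and 8.23 in virgin arrays 1 to 3, at 8.75, 8.71 and 8.53 in lactation arrays 1 to 3, and at 9.77, 9.65 and 10.15 in post-lactation arrays 1 to 3. Every post-lactation array was above every lactation array, and the lactation arrays lay close together. The means were 9.86 ± 0.26 in post-lactation and 8.66 ± 0.12 in lactation arrays (SD, n = 3 each), a difference of 1.20 (SE 0.33, 2.29-fold, 95% interval 0.48 to 1.91). Within sets 1, 2 and 3 it was 1.24, 1.45 and 0.90. By limma its unadjusted p was 0.00366 and its adjusted p was 0.254, so it was not called, nor when array set was a block (adjusted p = 0.0836). Il6 was called in 2 of 22 alternative fits, whose adjusted p by limma reached up to 0.669. These were the fit without the virgin arrays (adjusted p = 0.0375) and, with the set block, the fit without set 3 (adjusted p = 0.0482). The run without set 3, where the difference was smallest, was chosen after seeing the data.

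Against virgin arrays, Il6 in post-lactation arrays was 0.82 higher (SE 0.33, 1.77-fold, adjusted p = 1 by limma). It was higher in all 3 sets, by 0.60, 0.45 and 1.42, but virgin 2 lay inside the post-lactation range. Lactation minus virgin was -0.37 (SE 0.33, 95% interval -1.09 to 0.34), with -0.64, -0.99 and 0.52 within the sets.

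Cell markers also differed between the groups in which Il6 differed. Of 11 B lymphocyte genes, all had a higher mean in post-lactation than in lactation arrays, and the list's mean level was 2.96 to 3.62 against 2.07 to 2.59 above the array median. Of 10 neutrophil genes 7 had a higher mean, at 7.58 to 7.78 against 7.04 to 7.68. Of 10 erythroid genes all had a lower mean, at -0.05 to 0.73 against 4.37 to 4.69. Of these 9 were called lower (0.709% of all genes were called in either direction). Of 11 osteoclast genes 9 had a lower mean, at 2.68 to 3.18 against 3.47 to 3.85. Macrophage genes stood at 2.34 to 2.80 in post-lactation and 2.44 to 2.79 in lactation arrays, and T and NK lymphocyte genes at 1.42 to 1.68 and 1.23 to 1.51. Marrow stroma and adipocyte genes stood at 4.52 to 5.42 in post-lactation and 4.34 to 4.68 in lactation arrays, and 8 of 10 had a higher mean. A mean above 4.87 was reached by all of the 11 B lymphocyte and 10 neutrophil genes, by 9 of 10 erythroid and by 9 of 11 osteoclast genes. The part of these cells in the Il6 values was not tested.

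The other cytokines of the gp130 family were dimmer. Lif, a cytokine of osteoblast-lineage and many other cells, gave 5.39, 5.42 and 5.71 in virgin arrays 1 to 3, 6.25, 5.65 and 4.72 in lactation arrays 1 to 3, and 5.71, 6.27 and 6.24 in post-lactation arrays 1 to 3. All post-lactation arrays lay above all virgin arrays, though narrowly, while the lactation arrays held the lowest value and overlapped both groups. Post-lactation exceeded virgin by 0.57 (SE 0.34, 1.48-fold) and lactation by 0.54 (SE 0.34, 1.45-fold), each with an adjusted p of 1 by limma. The differences were positive in all 3 sets, at 0.32, 0.82 and 0.56 against virgin and at 1.00, 0.59 and 0.02 against lactation. The dimmer Lif probe set lay between 2.10 and 3.64 on all arrays and gives no fold. Il11, which acts on osteoblast and osteoclast formation, had group means of 4.61, 4.65 and 4.82 in virgin, lactation and post-lactation arrays, all below 4.87. Array set held 98.0% of its variance, with set 1 at 3.52 to 3.79 and the other sets at 5.09 to 5.37.

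Ptgs2 had its highest mean in lactation. It stood at 8.38, 10.34 and 10.56 in virgin arrays 1 to 3, at 10.44, 11.23 and 9.97 in lactation arrays 1 to 3, and at 9.23, 10.13 and 10.11 in post-lactation arrays 1 to 3. Virgin 1 was the lowest of the 9, and the groups overlapped. Lactation exceeded virgin by 0.79 (SE 0.53, 1.73-fold), by 1.59, 0.89 and -0.12 within sets 1, 2 and 3, and by 0.10 without virgin 1. Post-lactation minus lactation was -0.72 (SE 0.53, 1.65-fold lower), negative in all 3 sets at -0.74, -1.12 and -0.31. The adjusted p was 1 by limma for both.

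A dimmer Ptgs2 probe set gave the same order of group means, with differences that lay closer together between sets. It read 5.69, 6.74 and 6.46 in virgin arrays 1 to 3, 7.12, 7.92 and 6.60 in lactation arrays 1 to 3, and 5.91, 6.64 and 7.39 in post-lactation arrays 1 to 3. Lactation exceeded virgin in all 3 sets, by 0.91, 1.18 and 0.66, with a mean of 0.92 (SE 0.43, 1.89-fold). With array set as a block its unadjusted p was 0.000195 and its adjusted p over all probe sets 0.153 by limma. Post-lactation was below lactation in all 3 sets, at -0.69, -0.53 and -0.48 (adjusted p = 1 by limma, and 0.0952 with the block).

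Sema3a had its lowest mean after weaning, at 5.72 in post-lactation, against 6.01 in lactation and 6.04 in virgin arrays. The brightest probe set gave 6.17, 6.07 and 5.87 in virgin arrays 1 to 3, 5.87, 6.24 and 5.93 in lactation arrays 1 to 3, and 5.43, 5.87 and 5.86 in post-lactation arrays 1 to 3. The arrays of set 3 were exactly equal, and the groups overlapped. Post-lactation minus lactation was -0.29 (SE 0.21, 95% interval -0.76 to 0.18) and post-lactation minus virgin was -0.32 (SE 0.21), both with an adjusted p of 1 by limma. Within sets 1, 2 and 3 these were -0.49, -0.38 and 0 against lactation and -0.74, -0.21 and 0 against virgin. The other Sema3a probe sets lay below 4.87 on every array, at means of 3.97 and 2.50.

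**Figure D2:**
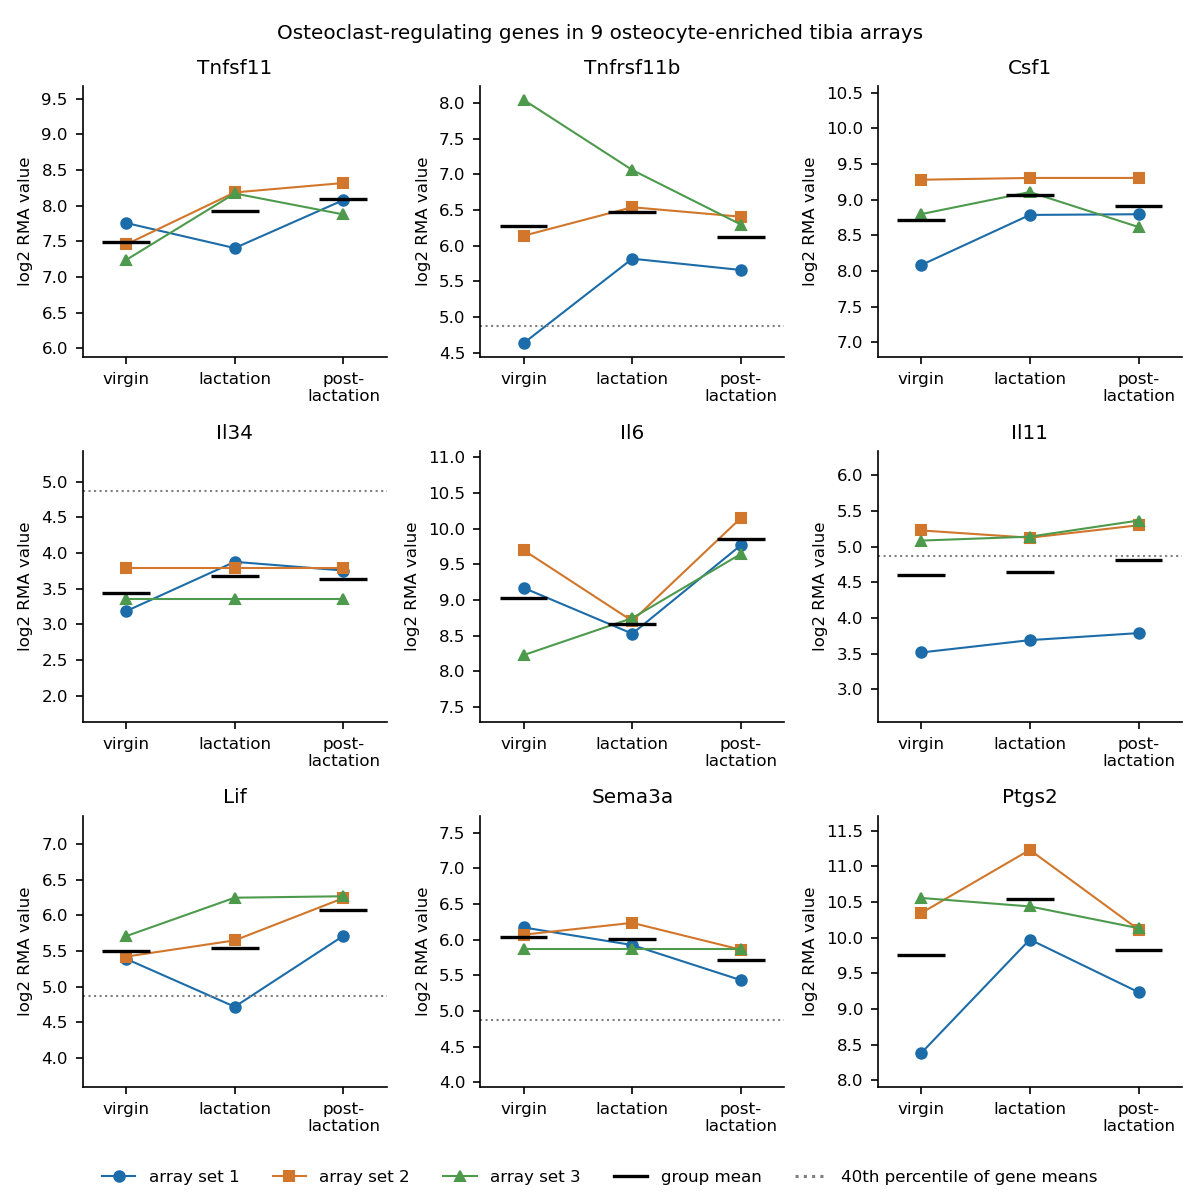
Log2 RMA value of the brightest probe set of each of the 9 genes on the 9 arrays, over the same height of 3.8 log2 units in each panel. Symbols and lines mark the 3 array sets (lines do not join the same mouse), black bars are group means and dotted lines the 40th percentile of gene means; for Il6 the post-lactation arrays, at 9.65 to 10.15, all lie above the lactation arrays, at 8.53 to 8.75.

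Over the 9 genes, 0 passed an adjusted p of 0.05 by limma in any comparison, and 0 did so when array set was a block. At an unadjusted p under 0.05 there were 0 members in lactation against virgin, 1 in post-lactation against lactation (Il6) and 2 in post-lactation against virgin (Tnfsf11 and Il6). The same threshold was met by 1.8%, 5.06% and 2.09% of all genes in these comparisons. With the block the members' counts were 1 (Ptgs2), 1 (Il6) and 4 (Tnfsf11, Il6, Il11 and Lif), against 8.01%, 15.1% and 8.11% of all genes. By limma with the block, the unadjusted p was 0.0476 for Ptgs2, 0.0459 for Tnfsf11 and 0.0478 for Lif in these comparisons. All group means of Il11 lay below 4.87. Among all 18194 genes, limma called 0% in lactation against virgin, 0.709% in post-lactation against lactation and 0.176% in post-lactation against virgin, and 0.022%, 3.53% and 0.451% with the block. For lactation against virgin that is 0 of all genes by limma, with 328 at an unadjusted p under 0.05.

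In lactation against virgin 7 of 9 members had a higher mean, with a median of 0.20 against 0.01 for all genes, and 0 had groups that did not overlap (2.75% of all genes). The difference had the same sign in all 3 sets for 1 member, Csf1, which was higher (16.5% of all genes in either direction, 10.4% higher). The members' median was 0.03 without virgin 1. In post-lactation against lactation 4 were higher and 5 lower, with a median of -0.04 against 0 for all genes. Only Il6 among the 9 had groups apart (7.63% of all genes in either direction, 3.26% higher), and 5 kept 1 sign in all sets (28.9% of all genes, 12.8% higher and 16.1% lower): Il6, Il11 and Lif were higher, Tnfrsf11b and Ptgs2 lower. In post-lactation against virgin 7 were higher, with a median of 0.19 against 0.00 for all genes, but of -0.13 without virgin 1. Groups did not overlap for Tnfsf11 and Lif (2.67% of all genes in either direction, 1.17% higher). By their brightest probe sets 4 members, Tnfsf11, Il6, Il11 and Lif, were higher in all sets (14.1% of all genes in either direction, 5.91% higher). For Il11 and Il34 all group means lay below 4.87. The medians of -0.04 and 0.19 were the differences of Il34 itself, for which no fold is given. With the differences of Il11 and Il34 set to 0, the members' median in lactation against virgin was 0.03. It was then 0 in post-lactation against lactation and 0.07 in post-lactation against virgin. A gene with equal values within a set can meet neither rule, which lowers the shares over all genes. Il34 and Sema3a were such members in every comparison. The comparisons share arrays, so these counts are not independent of each other.

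**Figure D3:**
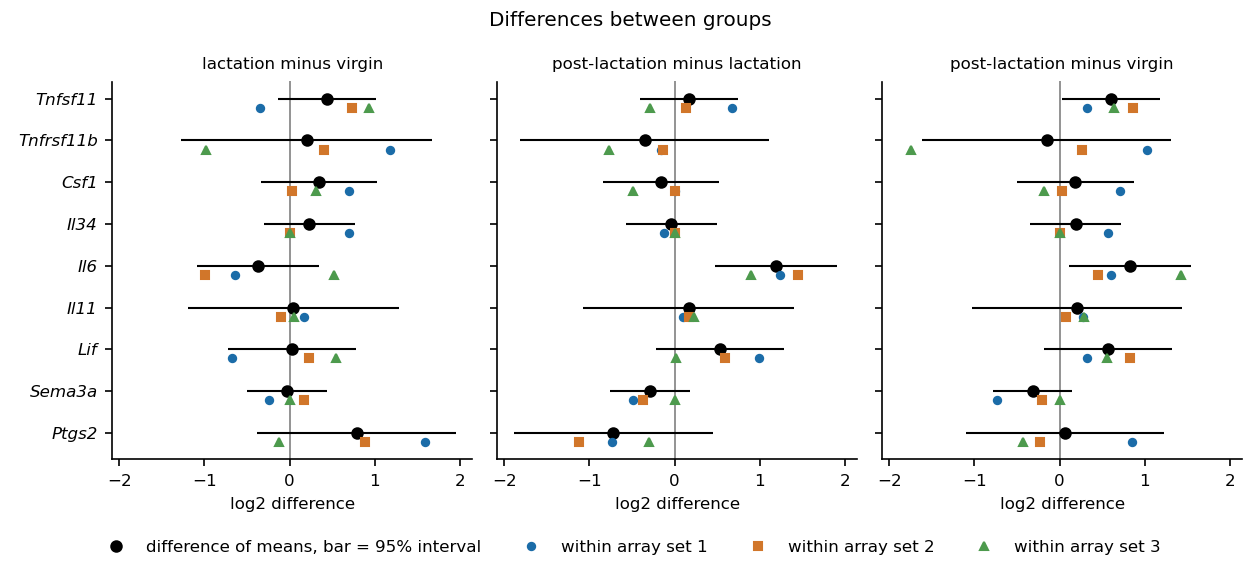
Log2 difference of the brightest probe set of each gene in the 3 comparisons. Black points are differences of group means with 95% intervals from limma, and coloured symbols are the differences within each array set; the interval of Il6 in post-lactation minus lactation runs from 0.48 to 1.91.

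The receptors of these ligands were measured for 17 of 18 genes, and 0 passed in any comparison by limma. Tnfrsf11a, the gene of RANK, averaged 4.81 in virgin, 4.80 in lactation and 4.92 in post-lactation arrays. Il6ra, the ligand-binding IL6 receptor, gave 7.37, 6.96 and 6.39 in virgin arrays 1 to 3, 6.10, 6.34 and 5.79 in lactation arrays 1 to 3, and 7.06, 7.10 and 7.21 in post-lactation arrays 1 to 3. The lactation arrays were the lowest 3 of the 9. Il6ra was 1.05 higher in post-lactation than in lactation arrays (SE 0.26, 2.07-fold), with an adjusted p by limma of 0.181, or 0.0878 under the set block, and lactation minus virgin was -0.83 (SE 0.26, adjusted p = 1). Lifr, the LIF receptor gene, averaged 9.92 ± 0.24 in post-lactation and 10.55 ± 0.19 in lactation arrays (SD, n = 3 each), with groups apart and a difference of -0.63 (SE 0.27). Csf1r was 0.53 higher in lactation than in virgin arrays (SE 0.37) and differed by -0.50 between post-lactation and lactation, with overlap in both. Within sets 1, 2 and 3 the Csf1r differences were 0.42, 0.88 and 0.31 in the first comparison and -0.76, -0.55 and -0.21 in the second. The common subunit gene Il6st differed by 0.27 (SE 0.23) between post-lactation and lactation.

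**Figure D4:**
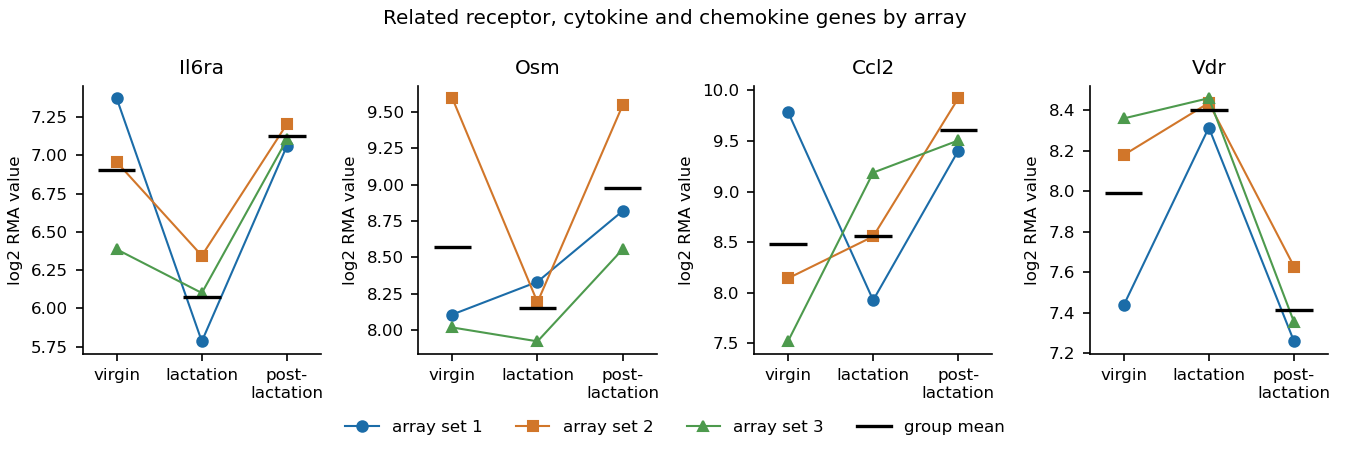
Log2 RMA values on the 9 arrays of Il6ra (IL6 receptor), Osm (oncostatin M), Ccl2 (a monocyte chemokine) and Vdr (vitamin D receptor). Symbols and lines mark array sets and black bars group means; the lactation arrays have the lowest mean of Il6ra and the highest mean of Vdr.

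Among 11 measured genes of other IL6 family cytokines and their shared signal, 9 had a higher mean in post-lactation than in lactation arrays, 0 passed, and the median was 0.04. Osm, the gene of oncostatin M, another gp130 cytokine, averaged 8.97 in post-lactation and 8.15 in lactation arrays, with groups apart and a difference of 0.83 (SE 0.40, adjusted p = 1 by limma). Among 12 genes that respond to this family 10 had a higher mean in post-lactation than in lactation arrays, with a median of 0.26. Socs3, the feedback inhibitor of gp130 signalling, differed by 0.13 (SE 0.25) and Lcn2, an acute-phase protein of neutrophils, by 0.62 (SE 0.21). The protease inhibitor gene Timp1 was the exception in size, at 7.86 in post-lactation and 9.38 in lactation arrays, a difference of -1.52 (SE 0.36, adjusted p = 0.145, and 0.0418 with the block). Of these 12 genes, 10 had a lower mean in lactation than in virgin arrays, with a median of -0.20.

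Genes known to act on Tnfsf11 transcription were measured for 18 of 19. Vdr, the vitamin D receptor, gave 7.44, 8.18 and 8.36 in virgin arrays 1 to 3, 8.46, 8.43 and 8.31 in lactation arrays 1 to 3, and 7.26, 7.35 and 7.63 in post-lactation arrays 1 to 3. Post-lactation arrays were below lactation arrays without overlap, by -0.99 (SE 0.25, adjusted p = 0.195, and 0.0370 with the set block, by limma). Pth1r, the receptor of parathyroid hormone and its related peptide, differed by 0.48 (SE 0.37) between lactation and virgin. Its differences within sets were 1.76, 0.05 and -0.35, and without virgin 1 the difference was -0.03. The glucocorticoid receptor gene Nr3c1 was 0.49 higher in post-lactation than in lactation arrays (SE 0.24), with groups apart. The medians of these 18 genes were -0.02 in lactation minus virgin, 0.13 in post-lactation minus lactation and 0.06 in post-lactation minus virgin, and 0 passed by limma. Without virgin 1 the comparisons with virgin had medians of -0.20 for lactation and -0.18 for post-lactation.

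Of 9 measured prostaglandin genes, Hpgd, the enzyme that inactivates prostaglandin E2, averaged 7.72 in post-lactation and 8.47 in lactation arrays. The difference was -0.75 (SE 0.33, adjusted p = 0.907 by limma), with -0.58, -0.86 and -0.81 within sets and an adjusted p of 0.0157 with the block. Ptges, which makes prostaglandin E2, stood below 4.87 in all 3 groups, and the prostaglandin E2 receptor gene Ptger4 was 0.46 higher in post-lactation than in lactation arrays (SE 0.24), with groups apart. Among 10 related genes, 9 further semaphorins and the semaphorin receptor gene Plxnb1, 8 had a higher mean in lactation than in virgin arrays and 8 a lower mean in post-lactation than in lactation arrays, with medians of 0.25 and -0.15. Without virgin 1 the first of these medians was -0.06.

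Among 29 other secreted factors that act on osteoclast formation, 24 had a higher mean in post-lactation than in virgin arrays, with a median of 0.19. The median was 0.08 without virgin 1. The monocyte chemokine gene Ccl2 averaged 9.61 in post-lactation and 8.56 in lactation arrays, a difference of 1.05 (SE 0.50) with groups apart. Ccl7, a related chemokine, averaged 6.61 and 5.47 in these groups, a difference of 1.14 (SE 0.36, adjusted p = 0.407 by limma). The interleukin gene Il1a was 0.55 higher in post-lactation than in lactation arrays (SE 0.31, adjusted p = 1, and 0.0375 with the set block, by limma). Of 22 genes of RANK signalling, 17 had a higher mean in post-lactation than in lactation arrays, with a median of 0.13. The kinase gene Syk differed by 0.57 (SE 0.26, adjusted p = 0.951, and 0.0411 with the block) and the adaptor gene Fcer1g by 0.65 (SE 0.24). In the 8 lists of related pathway genes, 0 genes were called by limma without the block. With it, post-lactation against lactation had 2 calls among the 29 secreted factors. It had 1 among the 22 RANK signalling genes, and 1 among the 12 IL6 family response genes. There was 1 among the 9 prostaglandin genes, 1 among the 18 genes acting on Tnfsf11, and 0 in the remaining lists. The share over all genes was 3.53%.

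**Figure D5:**
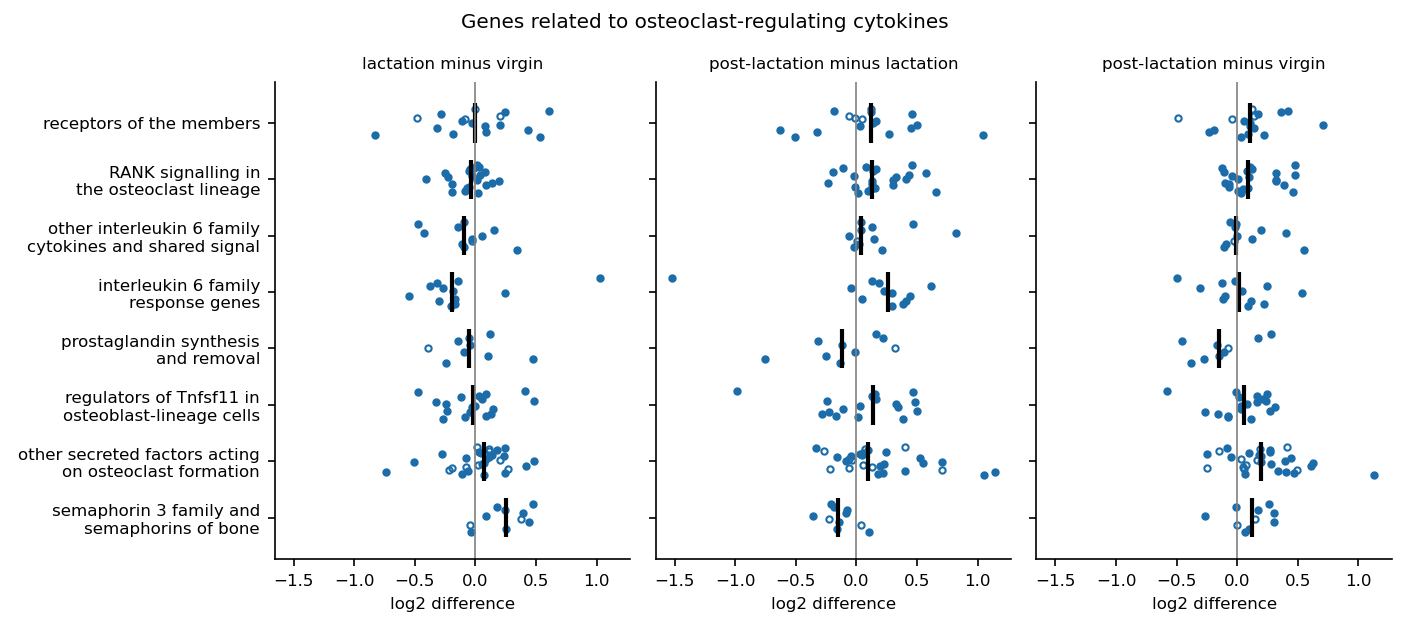
Log2 differences of single genes in the 8 related gene lists, 1 panel per comparison. Filled points have a mean level above the 40th percentile of gene means, open points do not, and black bars are list medians; the medians lie between -0.20 and 0.26.

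In the osteoclast list, Dcstamp, needed for osteoclast fusion, was 1.46 higher in lactation than in virgin arrays (SE 0.37, adjusted p = 1, and 0.0430 with the set block, by limma). It was the only 1 of 11 genes called with the block (0.022% of all genes). Ctsk was 1.83 higher (SE 0.37) and Acp5 1.74 higher (SE 0.48), with adjusted p of 0.0738 and 0.0895 by limma with the block. Mmp9 differed by 0.56 (SE 0.23) and Nfatc1 by 0.01 (SE 0.31). Between post-lactation and lactation Dcstamp differed by -1.22 (adjusted p = 0.360, and 0.00363 with the block, by limma). There 5 of the 11 were called lower with the block (3.53% of all genes in either direction). Which cells gave these values was not tested. Over the osteoclast list the mean level above the array median was 3.47 to 3.85 in lactation and 2.64 to 2.71 in virgin arrays, with no overlap. Tnfsf11 had no such separation between those groups, as given above.

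The genes most like Tnfsf11 and Tnfrsf11b were found by Pearson correlation over the 9 arrays after each array set's mean had been removed, among 10915 genes with a mean above 4.87. The arrays of a set share their processing, and no test is attached. For Tnfsf11 they were Ube2b, a ubiquitin-conjugating enzyme gene (r = 0.97), Cd83, a surface protein gene of activated immune cells (r = 0.97), and Rgs4, a regulator of G protein signalling (r = 0.94). Cd83 averaged 8.24 in virgin, 8.68 in lactation and 8.99 in post-lactation arrays. For Tnfrsf11b they were Slc1a4, a neutral amino acid transporter gene, Ntn1, which encodes the guidance protein netrin 1, and Fam160a1, each at r = 0.98. Their group means differed by at most 0.12, so the likeness lies in the scatter among arrays of a group.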

How the data were processed

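Expression was measured on 9 Affymetrix arrays. The deposited table holds the authors' log2 values for 45101 probe sets; per the submitters' processing notes these are RMA summaries (version not given in the sources used here). Deposited values ran from 1.55 to 14.9 and none was missing. Probe sets were named with the supplied platform table (34958 with 1 gene, 932 with several, 9211 with none), and 272 of 299 entries of the related gene lists were found; the rest are not analysed here. Arrays sharing over 1% exactly equal values were taken as processed together.

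The 18194 genes, by their brightest probe set, were compared with limma 3.58.1 in R 4.3.3 (group means, all 9 arrays, 6 residual degrees of freedom, Benjamini-Hochberg over all genes), checked on simulated data. Dimmer probe sets were adjusted over all probe sets. Intervals are 95% and, like the SEs, come from this fit without the set block. With the block the SE was smaller for every member. It was 0.244 for Tnfsf11 (0.261 without), 0.182 for Csf1 (0.312) and 0.32 for Ptgs2 (0.531). The number of arrays limits the precision. Alternatives were the array set or title number as a block, an intensity trend, a filter on dim genes, other normalizations, averaged probe sets, raised low values, fewer arrays, and each array left out. All 9 members are named. From the related lists, genes with the largest differences above the 40th percentile were to be named, with any called; Tnfrsf11a, Il6st, Socs3, Ptges, Ptger4, Il1a and Dcstamp were added for their role or after their values were seen. The members and lists were chosen with earlier results of these data known.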

Additional observations from a re-analysis of the deposited data

How the results depend on the processing

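Of 585 differences of the 9 genes recomputed over 22 alternatives, 49 changed sign, none of them past the threshold in either fit, and 2 passed it, both Il6 in post-lactation against lactation (1.20 with the 6 arrays compared and 1.34 without array set 3). Of 27 differences 13 kept their sign in every alternative run. The counts of genes called were 0, 129 and 32 for lactation against virgin, post-lactation against lactation and post-lactation against virgin. They became 4, 642 and 82 when array set was a block; with that block and without virgin 1 the last 2 were 927 and 4. Without array set 1 the block gave 0 in post-lactation against lactation and 0 in post-lactation against virgin, without set 2 it gave 70 and 0, and without set 3 post-lactation against virgin had 8; these last 3 runs were chosen after seeing the data. Lactation against virgin gave 1 gene with array medians subtracted, 1 with quantile normalization and 1 with low values raised, where post-lactation against virgin gave 17; quantile normalization gave 205 in post-lactation against lactation. Leaving out 1 array gave 0 to 0, 76 to 138 and 13 to 34. Post-lactation against lactation had 76 without lactation 2 and 80 without post-lactation 2; post-lactation against virgin had 13 without post-lactation 1 or post-lactation 2, 16 without post-lactation 3 and 21 without virgin 1. The ratio changes ran from -0.772 to 1.19, from 0.298 to 0.717 and from -0.25 to 1.72. The causes were not tested. Title numbers gave no sign of pairing: deviations of same-numbered arrays from different sets correlated at -0.41 to -0.17. Arrays that shared neither number nor set correlated at -0.467 to -0.135. Arrays of 1 set with different numbers correlated at 0.53 to 0.734. Array set dominates these deviations, so they cannot show whether number pairs the arrays as well. With title number as a block the counts were 0, 118 and 33, and no call of a member changed. Signal near background limits Il11, Il34, the Tnfrsf11b value of virgin 1, the Lif value of lactation 3 and the dimmer probe sets of Lif, Sema3a and Tnfrsf11b.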
